A study of Mus musculus with 4 samples.

Results

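Integrins and the focal adhesion proteins that tie them to the actin cytoskeleton were examined as a set of 40 genes, chosen by symbol: 12 alpha subunits, 8 beta subunits, the beta-like protein Itgbl1 and 19 intracellular components. All 40 symbols were found in each library's table of 33641 genes. The study cultured cardiac fibroblasts, isolated fresh from wild-type C57BL/6J mice aged 12 weeks, to 80% confluency and gave them 10 ng/ml TGFbeta or vehicle. There were 2 TGFbeta libraries and 2 vehicle libraries. Both groups received 4-thiouridine, a uridine analogue, 20 h and 4 h before crosslinking with 368 nm light at 200000 uJ per square centimetre. How long the TGFbeta exposure lasted is not given in the sources used here. The study's design text speaks of RNA bound by the RNA-binding protein HuR and recovered after PAR-CLIP, a crosslinking and immunoprecipitation method, whereas the sample labels speak of total RNA, of which 1 ug entered a TruSeq library. These descriptions could not be reconciled here, and without an input or a control antibody among the libraries a level below may be an amount in the cell or an amount bound to HuR. The labels do not say whether libraries of a group came from separate animals or cultures, and p-values then measure only the spread between these samples, which may be technical.

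An integrin is a pair of an alpha and a beta subunit that spans the cell membrane, and the alpha subunit largely sets which matrix protein is bound: collagens, laminins, or proteins with an arginine-glycine-aspartate (RGD) motif such as fibronectin and vitronectin. Inside the cell, talins and kindlins bind the beta tail and switch the receptor on, while vinculin, tensins, zyxin and the complex of integrin-linked kinase, Pinch and parvin join it to actin, and focal adhesion kinase, paxillin and p130Cas pass on signals. In fibroblasts that become myofibroblasts under TGFbeta, these contacts grow and bear the contractile force on the matrix, and integrins that pair Itgav with several beta subunits can in turn release TGFbeta from its latent complex.

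Levels are TPM, a measure per transcript length in which every library sums to the same total, so the read depth of each library is unknown. Each library held 20945 to 21671 genes with a value over 0. The fibroblast markers Col1a1, Col1a2 and Dcn were abundant in every library, and the 8 fibroblast markers summed to 11034 and 8945 TPM in the TGFbeta libraries and to 8296 and 6628 TPM in the vehicle libraries. Without Col1a1 and Col1a2, the other 6 summed to 1609 and 1994 TPM with TGFbeta and to 2708 and 2427 TPM with vehicle, 4 of them lower in both TGFbeta libraries, of which Pdgfra and Tcf21 were called. The 8 leukocyte markers summed to 66.3 and 68.3 TPM with TGFbeta and to 84.0 and 98.9 TPM with vehicle, and the 8 endothelial markers to 62.5 and 55.5 TPM with TGFbeta and to 78.3 and 82.7 TPM with vehicle. The 6 cardiomyocyte markers summed to 50.6 and 52.8 TPM with TGFbeta and to 69.0 and 111 TPM with vehicle, with Myh6 and Actc1 at or near 0. Pericyte and smooth muscle markers summed to 54.6 and 56.6 TPM with TGFbeta and to 98.0 and 106 TPM with vehicle, with 1 of the 7, Notch3, called lower. Without Notch3 the other 6 summed to 33.5 and 39.3 TPM with TGFbeta and to 24.02 and 21.99 TPM with vehicle. Of these 6, 2 lay higher in both TGFbeta libraries and 3 lay lower. Rgs5 overlapped, with 1.95 and 13.5 TPM with TGFbeta, against 2.26 and 2.47 TPM with vehicle. Schwann cell markers summed to 4.20 to 6.95 TPM in all libraries. The 40 genes together took 0.635% and 0.556% of all TPM in the TGFbeta libraries and 0.563% and 0.562% in the vehicle libraries.

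With TGFbeta, 3 of the 39 genes that could be tested rose, none fell and 36 did not pass. The genes that rose were Itga3 (a laminin-binding alpha subunit), Itga11 (the fibrillar collagen-binding alpha subunit of fibroblasts) and Itgbl1 (a secreted protein built of repeats like those of beta subunits). A gene was called when limma's p, Benjamini-Hochberg adjusted over all 15815 genes with a mean of at least 1 TPM, lay under 0.05. Fermt1, the kindlin of epithelia, lay between 0.115 and 0.298 TPM in every library and was not tested. The called members made up 7.69% of those tested, against 5.92% of all tested genes. By direction, 1.54% of all tested genes were called higher and 4.38% were called lower, and the members called higher again made up 7.69%. At an unadjusted p under 0.05 there were 15 of 39 members, or 38.5%, against 24.5% of all tested genes.

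Both TGFbeta libraries lay on the same side of both vehicle libraries for 26 of 39 members, or 66.7%, against 55.3% of all tested genes. They lay above in 9 members, or 23.1%, against 15.5% of all genes, and below in 17 members, or 43.6%, against 39.8% of all genes. The median log2 change, TGFbeta minus vehicle, was -0.16 over the 39 members and -0.13 over all tested genes, so the tested genes as a whole sat slightly lower in the TGFbeta libraries. After each library was scaled to the median of its genes, the median of all tested genes was 0.03 and that of the members was -0.00129. Under that scaling 4 members were called, all higher, and 5.2% of all genes were called, with Itga5 (log2 change 0.81, adjusted p 0.0411) joining the 3 genes above. The TGFbeta libraries then lay above the vehicle libraries in 17 members, or 43.6%, against 29.3% of all genes, and below in 14 members, or 35.9%, against 24.7% of all genes. In these libraries of mixed RNA from many cells, fewer cells of a type and less RNA per cell cannot be told apart.

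**Figure D1:**
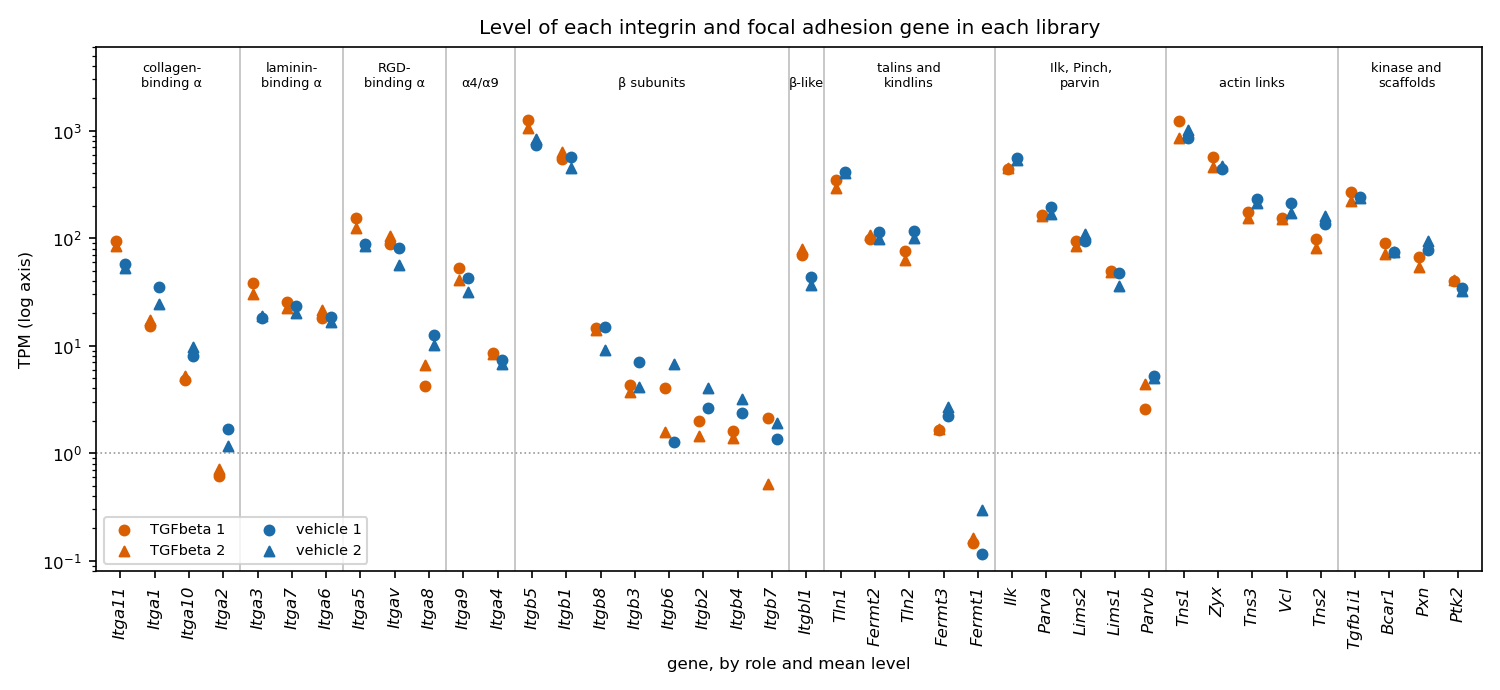
Level of each of the 40 genes in TPM (log axis) in each library, grouped by role and ordered within a role by mean level; circles are replicate 1, triangles replicate 2, and the dotted line marks 1 TPM. Both TGFbeta points lie above both vehicle points in 9 of 39 tested genes, or 23.1%, against 15.5% of all tested genes. Itga11, Itga3, Itga5 and Itgbl1 are among these 9. Both lie below in 17, or 43.6%, against 39.8% of all tested genes. Fermt1 lies under the line in every library.

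The promoter sequences of the 3 genes that rose are shown to set the increase beside the letters that TGFbeta-responsive factors are known to bind. Each run is the 250 bases before the RefSeq start in GRCm38.p6, read 5′ to 3′ on the gene's strand. Capitals mark matches on either strand to CAGACA (a Smad element) or GGGCGG (an Sp1 site). Windows were also searched for GGAATG (a Tead site), TGANTCA (an AP-1 site) and the CArG box of serum response factor. The Itga3 window is chr11:95076715-95076964 on the minus strand, that of Itga11 is chr9:62677605-62677854 on the plus strand, and that of Itgbl1 is chr14:123659890-123660139 on the plus strand. In all 3, the gene span of the GENCODE annotation, given below, begins upstream of this RefSeq start. Part of each window thus lies within the annotated gene.
Itga3: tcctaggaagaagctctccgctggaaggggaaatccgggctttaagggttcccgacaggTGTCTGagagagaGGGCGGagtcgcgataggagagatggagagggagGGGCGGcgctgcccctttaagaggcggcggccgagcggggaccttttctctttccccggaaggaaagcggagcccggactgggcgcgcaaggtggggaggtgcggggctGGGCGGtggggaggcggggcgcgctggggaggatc
Itga11: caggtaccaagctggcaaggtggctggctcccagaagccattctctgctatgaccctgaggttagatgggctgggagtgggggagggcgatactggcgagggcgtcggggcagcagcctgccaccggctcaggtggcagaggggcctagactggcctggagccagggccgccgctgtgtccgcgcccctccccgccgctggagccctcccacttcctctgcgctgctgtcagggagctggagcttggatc
Itgbl1: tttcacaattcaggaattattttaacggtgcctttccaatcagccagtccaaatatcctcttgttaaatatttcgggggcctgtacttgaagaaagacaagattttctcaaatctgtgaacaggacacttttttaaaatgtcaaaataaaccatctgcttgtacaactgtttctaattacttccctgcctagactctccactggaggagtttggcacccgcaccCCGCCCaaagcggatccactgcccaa
The Itga3 window shown held 1 CAGACA, on the opposite strand, and 3 GGGCGG. RefSeq lists a second Itga3 start further downstream, whose window (chr11:95069199-95069448, not printed) held 1 GGGCGG. The Itgbl1 window held 1 GGGCGG, on the opposite strand, and the Itga11 window held no match to any of the 5 motifs. Of the 40 genes, 29 had a RefSeq window, and some had several, 35 windows in all. CAGACA occurred in 6 of the 35 windows, or 17.1%, and in 17.1% of all 32851 windows. GGGCGG occurred in 18, or 51.4%, against 32.7% of all windows. GGAATG occurred in 3, or 8.57%, against 12.6%, and TGANTCA in 1, that of Zyx, or 2.86%, against 6.75%. The CArG box occurred in 3 windows, those of Fermt2, Itgb6 and Vcl, or 8.57%, against 1.47% of all windows. The median GC content was 63.6% over the members' windows and 52.4% over all windows. A match is a description of letters and was not tied to binding.

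The CArG box of Vcl, the gene of vinculin, is printed because Vcl is a textbook target of serum response factor in muscle-like cells. Its window is chr14:20929148-20929397 on the plus strand, with capitals for the CArG box, 1 GGAATG and 4 GGGCGG, of which 2 overlap.
Vcl: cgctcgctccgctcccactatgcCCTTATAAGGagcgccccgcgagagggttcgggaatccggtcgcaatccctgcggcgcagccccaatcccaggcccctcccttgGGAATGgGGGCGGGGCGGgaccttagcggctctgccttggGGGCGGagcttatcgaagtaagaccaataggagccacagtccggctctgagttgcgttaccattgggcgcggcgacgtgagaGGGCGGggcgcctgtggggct
The Vcl transcript had 155 and 150 TPM in the TGFbeta libraries, against 213 and 171 TPM in the vehicle libraries. Both TGFbeta values lay below both vehicle values, and the log2 change of -0.32 did not pass (adjusted p 0.262).

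Among the 4 collagen-binding alpha subunits, Itga11 rose and the other 3 did not pass, with lower values in the TGFbeta libraries. Itga11, which binds fibrillar collagen on fibroblasts, had 94.8 and 84.0 TPM in the TGFbeta libraries, against 57.6 and 52.7 TPM in the vehicle libraries. The groups did not overlap, and the ratio of means was 1.62 (log2 change 0.69, SE 0.14, adjusted p 0.0470). The gene lies at chr9:62677826-62783982 on the plus strand (ENSMUSG00000032243.8, GENCODE M21, GRCm38), and no exon of it overlaps another gene. Itga1, which prefers the collagen of basement membranes, had 15.2 and 17.2 TPM with TGFbeta, against 35.5 and 24.6 TPM with vehicle. All TGFbeta values of Itga1 lay below the vehicle values, yet the change of -0.83 (SE 0.21) had an adjusted p of 0.0745. Itga10, a collagen receptor best known in cartilage, had 4.82 and 5.21 TPM with TGFbeta, against 7.96 and 9.78 TPM with vehicle (log2 change -0.71, adjusted p 0.0877). Itga2, the collagen receptor of platelets and epithelia, had 0.609 and 0.713 TPM with TGFbeta, against 1.69 and 1.17 TPM with vehicle (log2 change -0.54, adjusted p 0.234). The groups did not overlap in either gene. Exons of Itga1 and Itga10 share 685 and 1739 bases with a predicted gene on the same strand, and how the authors assigned such reads is not given in the sources used here.

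The same values also give the make-up of the collagen-binding subunits in each library. Together they had 115 and 107 TPM in the TGFbeta libraries, against 103 and 88.3 TPM in the vehicle libraries. Itga11 made up 82.1% and 78.4% of that sum with TGFbeta, against 56.1% and 59.7% with vehicle. Itga1 made up 13.2% and 16.1% with TGFbeta, against 34.5% and 27.9% with vehicle. The ratio of Itga11 to Itga1 was 6.24 and 4.87 in the TGFbeta libraries, against 1.62 and 2.14 in the vehicle libraries. The groups had to lie apart in this ratio, since Itga11 was higher and Itga1 lower in both TGFbeta libraries. With 2 libraries a group an exact permutation test cannot go below 0.333, and none was run on these shares.

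**Figure D2:**
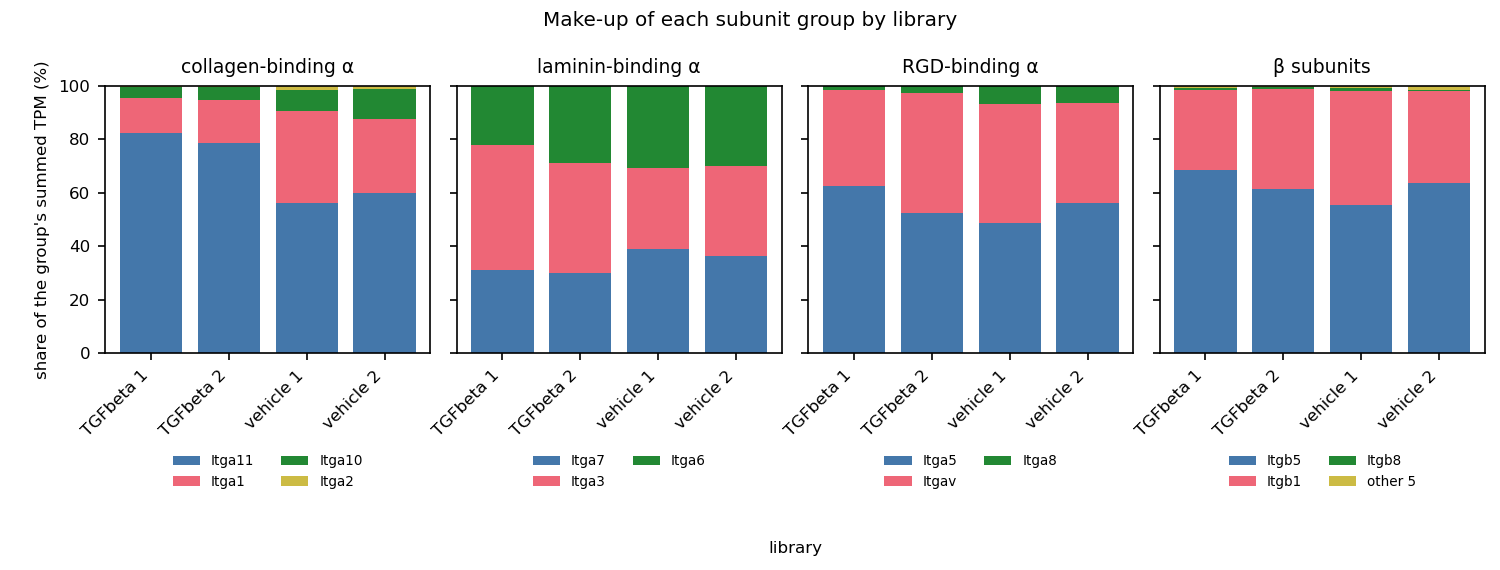
Share of summed TPM (%) that each subunit took within 3 groups of alpha subunits and within the 8 beta subunits, with 1 stacked bar per library. Itga11 took 82.1% and 78.4% of the collagen-binding group with TGFbeta and 56.1% and 59.7% with vehicle, and Itgb5 and Itgb1 filled most of the beta group in every library.

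Of the 3 laminin-binding alpha subunits, Itga3 rose and the other 2 did not pass. Itga3 had 38.5 and 30.5 TPM in the TGFbeta libraries, against 18.2 and 18.8 TPM in the vehicle libraries. The lowest TGFbeta value stood well clear of the vehicle pair, with a ratio of means of 1.87 (log2 change 0.86, SE 0.17, adjusted p 0.0431). The gene is at chr11:95044474-95076801 on the minus strand (ENSMUSG00000001507.16), free of exon overlap with other genes. Itga6, a laminin receptor of many epithelial and endothelial cells, had 18.1 and 21.5 TPM with TGFbeta, against 18.6 and 16.6 TPM with vehicle. Itga7, the laminin receptor of muscle, had 25.6 and 22.3 TPM with TGFbeta, against 23.4 and 20.1 TPM with vehicle. Both overlapped between groups, with adjusted p of 0.615 for Itga6 and 0.659 for Itga7. Itga3 was 46.8% and 41.1% of the laminin-binding sum with TGFbeta, against 30.2% and 33.8% with vehicle. Cd151, a tetraspanin that associates with laminin-binding integrins, had 369 and 326 TPM with TGFbeta, against 445 and 502 TPM with vehicle, and did not pass (adjusted p 0.134).

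None of the 3 RGD-binding alpha subunits passed, although in each the groups did not overlap. Itga5, the fibronectin receptor subunit, had 153 and 124 TPM in the TGFbeta libraries, against 89.0 and 85.4 TPM in the vehicle libraries. It was the most abundant alpha subunit in each library, and its ratio of means was 1.59 (log2 change 0.65, SE 0.15, adjusted p 0.0614). Itgav, shared by the vitronectin and latent-TGFbeta receptors, had 87.6 and 106 TPM with TGFbeta, against 81.1 and 56.7 TPM with vehicle (log2 change 0.50, adjusted p 0.205). Itga8, a receptor for fibronectin and nephronectin on mesenchymal cells, ran the other way, with 4.26 and 6.55 TPM with TGFbeta, against 12.6 and 10.0 TPM with vehicle. Its log2 change of -0.96 (SE 0.24) was the largest in size among the members and had an adjusted p of 0.0745. Itga8 took 1.74% and 2.77% of the RGD-binding sum with TGFbeta, against 6.92% and 6.61% with vehicle, and the ratio of Itga5 to Itga8 was 36.0 and 18.9 with TGFbeta, against 7.04 and 8.50 with vehicle. An antisense gene covers 372 exon bases of Itga8, and without knowledge of strand-specific counting its reads cannot be told apart from those of Itga8.

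The related subunits Itga4 and Itga9 did not pass. Itga4, which binds vascular cell adhesion molecule and fibronectin, had 8.58 and 8.42 TPM with TGFbeta, against 7.36 and 6.74 TPM with vehicle. Itga9, a receptor for tenascin and other ligands, had 52.6 and 41.2 TPM with TGFbeta, against 43.0 and 31.8 TPM with vehicle. The groups were apart in Itga4 and overlapped in Itga9, with adjusted p of 0.447 for Itga4 and 0.387 for Itga9.

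Beta subunit transcripts were dominated by Itgb5 and Itgb1, and none of the 8 passed. Itgb5, which pairs with Itgav to bind vitronectin, had 1244 and 1055 TPM in the TGFbeta libraries, against 738 and 845 TPM in the vehicle libraries. The groups did not overlap (ratio of means 1.45, log2 change 0.54, SE 0.16), and the adjusted p was 0.115. Itgb1, a partner of all collagen-binding and laminin-binding alpha subunits of the set, had 545 and 639 TPM with TGFbeta, against 563 and 452 TPM with vehicle. These values overlapped (log2 change 0.23, adjusted p 0.475). Itga11, which rose, has no other known partner than Itgb1. The ratio of Itgb1 to the sum of all 12 alpha subunits was 1.08 and 1.37 with TGFbeta, against 1.42 and 1.35 with vehicle. Itgb8, which with Itgav binds latent TGFbeta, had 14.6 and 14.1 TPM with TGFbeta, against 14.9 and 9.04 TPM with vehicle. Itgb3, which forms the vitronectin receptor with Itgav and the platelet fibrinogen receptor with Itga2b, had 4.28 and 3.72 TPM with TGFbeta, against 7.06 and 4.14 TPM with vehicle. Values of both genes overlapped between groups, with vehicle 2 the lowest for Itgb8 and vehicle 1 the highest for Itgb3 (adjusted p 0.532 for Itgb8 and 0.453 for Itgb3).

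The remaining beta subunits were scarce. Itgb2, the beta subunit of leukocytes, had 2.01 and 1.46 TPM with TGFbeta, against 2.61 and 4.00 TPM with vehicle (log2 change -0.64, adjusted p 0.192). Itgb4, which joins Itga6 in the hemidesmosomes of epithelia, had 1.60 and 1.39 TPM with TGFbeta, against 2.34 and 3.21 TPM with vehicle (log2 change -0.59, adjusted p 0.185). The groups were apart in both, and the leukocyte, endothelial and epithelial marker sums were lower with TGFbeta as well. Without Lyz2, its most abundant marker, the leukocyte sum was 23.4 and 20.1 TPM with TGFbeta, against 28.7 and 32.5 TPM with vehicle. Without Egfl7 the endothelial sum was 40.1 and 38.6 TPM with TGFbeta, against 44.3 and 48.4 TPM with vehicle. In each of these sets of 7, 3 markers lay lower in both TGFbeta libraries, 0 lay higher and the others overlapped. The 6 epithelial and mesothelial markers summed to 8.95 and 9.47 TPM with TGFbeta, against 11.8 and 14.8 TPM with vehicle, with Krt8, Epcam and Cdh1 at or near 0 in every library. Upk3b made up most of that sum, with 7.32 and 6.77 TPM with TGFbeta, against 9.19 and 12.1 TPM with vehicle. The part of other cell types in the Itgb2 and Itgb4 values was not tested. Itgb6, the epithelial partner of Itgav, ranged over 4.02 and 1.58 TPM with TGFbeta and 1.27 and 6.70 TPM with vehicle, and Itgb7, of lymphocytes, over 2.12 and 0.520 TPM with TGFbeta and 1.35 and 1.92 TPM with vehicle. In both genes the replicates of a group differed more than the groups did.

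Itgbl1 rose along with the alpha subunits above. It had 69.8 and 79.3 TPM in the TGFbeta libraries, against 43.7 and 37.0 TPM in the vehicle libraries. The groups stood apart, with a ratio of means of 1.85 (log2 change 0.87, SE 0.15, adjusted p 0.0343), the lowest adjusted p of the 39 members. The gene spans chr14:123659971-123975618 on the plus strand (ENSMUSG00000032925.16) and shares no exon bases with another gene. Its protein carries the cysteine-rich repeats of beta subunits without spanning the membrane, so it is no partner of an alpha subunit on the cell surface.

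**Figure D3:**
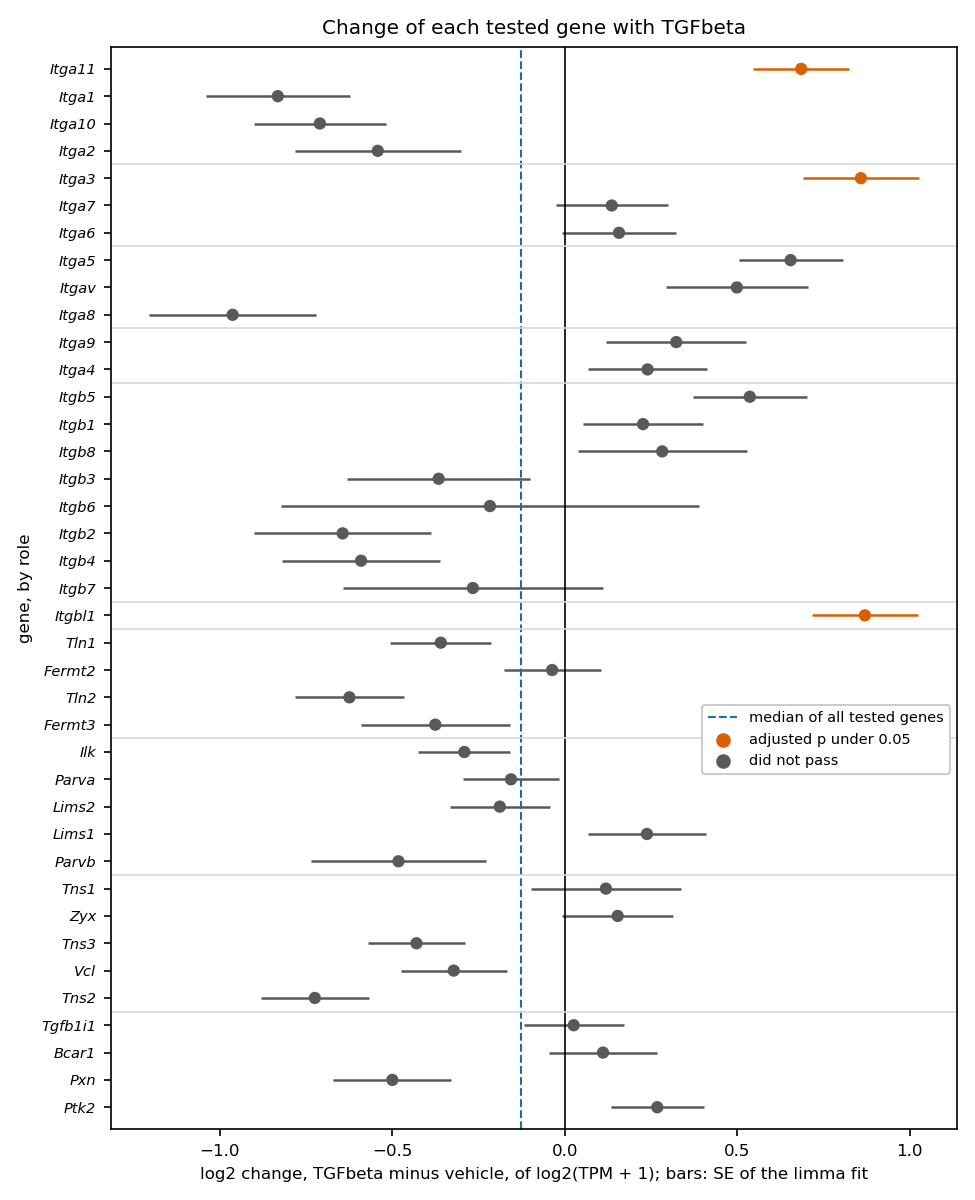
Log2 change with TGFbeta (TGFbeta minus vehicle, on log2(TPM + 1)) of the 39 tested genes by role, with bars for the standard error of the limma fit and a dashed line at the median of all tested genes, -0.13. The 3 called genes, Itga11, Itga3 and Itgbl1, lie between 0.69 and 0.87, and 12 of the 18 intracellular genes lie left of 0.

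None of the 18 tested intracellular components passed. Their median log2 change was -0.24, against 0.15 for the 20 integrin subunits and -0.13 for all tested genes. The TGFbeta libraries lay below the vehicle libraries in 11 of the 18 and above in 2, while among the 20 integrin subunits they lay above in 6 and below in 6. Over all tested genes the corresponding shares, likewise without scaling, were 39.8% below and 15.5% above. Median scaling changed the shares over all tested genes to 24.7% below and 29.3% above. These sets were not counted again after scaling, so their counts cannot be set against those shares. Quantile normalization moved the medians to -0.13 for the intracellular genes and 0.30 for the integrin subunits, and median scaling to -0.09 and 0.30. The difference between these sets was not tested, since their members share the same libraries.

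Talins, which bind the beta tail and vinculin, had lower values with TGFbeta. Tln1, the widespread talin, had 348 and 292 TPM in the TGFbeta libraries, against 416 and 402 TPM in the vehicle libraries (log2 change -0.36, adjusted p 0.203). Tln2, the talin of heart and skeletal muscle, had 76.3 and 62.8 TPM with TGFbeta, against 116 and 99.6 TPM with vehicle (log2 change -0.62, SE 0.16, adjusted p 0.0774). Neither overlapped between groups and neither passed. Fermt2, the kindlin of most adherent cells, had 99.3 and 106 TPM with TGFbeta, against 113 and 97.5 TPM with vehicle, which overlapped (log2 change -0.04, but 0.12 after median scaling, adjusted p 0.904). Fermt3, the kindlin of blood cells, had 1.64 and 1.68 TPM with TGFbeta, against 2.20 and 2.71 TPM with vehicle (log2 change -0.38, adjusted p 0.346). Its vehicle values were the higher ones, as was the leukocyte marker sum, which was mostly Lyz2. The part of leukocytes in the Fermt3 values was not tested.

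The complex of integrin-linked kinase, Pinch and parvin, which sits on the beta tail and binds actin, did not pass in any of its 5 genes. Ilk, its pseudokinase core, had 437 and 453 TPM in the TGFbeta libraries, against 560 and 530 TPM in the vehicle libraries. The groups did not overlap (log2 change -0.29, SE 0.13, adjusted p 0.246). Exons on the opposite strand cover 2461 of the 2744 exon bases of Ilk, so part of these values could be reads of Taf10 or Rrp8, which cannot be told apart here. The actin-binding parvin Parva had 165 and 161 TPM with TGFbeta, against 196 and 168 TPM with vehicle, and Parvb had 2.59 and 4.41 TPM with TGFbeta, against 5.28 and 5.03 TPM with vehicle. Among the Pinch adaptors, Lims1 had 49.2 and 48.9 TPM with TGFbeta, against 47.6 and 36.0 TPM with vehicle, and Lims2 had 93.2 and 85.1 TPM with TGFbeta, against 93.5 and 110 TPM with vehicle. In Lims1 the TGFbeta pair was the higher and in the other 4 genes the lower, by margins that were narrow in Lims1, Parva and Lims2. The 5 genes summed to 747 and 752 TPM with TGFbeta, against 902 and 849 TPM with vehicle.

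Among the proteins that reach actin, the tensins differed from one another. Tns1 had 1225 and 849 TPM in the TGFbeta libraries, against 863 and 1021 TPM in the vehicle libraries, and the replicates spread as widely as the groups (log2 change 0.12, adjusted p 0.785). Tns2 had 97.3 and 81.8 TPM with TGFbeta, against 137 and 160 TPM with vehicle, without overlap (log2 change -0.72, SE 0.16, adjusted p 0.0529). Tns3 had 176 and 152 TPM with TGFbeta, against 229 and 214 TPM with vehicle, also without overlap (log2 change -0.43, adjusted p 0.131). The ratio of Tns1 to Tns2 was 12.6 and 10.4 with TGFbeta, against 6.31 and 6.37 with vehicle. Zyx, the zyxin of mature adhesions and stress fibres, had 569 and 457 TPM with TGFbeta, against 443 and 474 TPM with vehicle, which overlapped (adjusted p 0.613). For Vcl, given above, an opposite-strand gene covers 2090 exon bases.

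Among signalling scaffolds, Pxn (paxillin) had 67.1 and 53.9 TPM in the TGFbeta libraries, against 77.9 and 93.8 TPM in the vehicle libraries (log2 change -0.50, adjusted p 0.144). Its relative Tgfb1i1 (Hic-5, named for its induction by TGFbeta) had 267 and 223 TPM with TGFbeta, against 241 and 239 TPM with vehicle (log2 change 0.03, adjusted p 0.936). Pxn was lower in both TGFbeta libraries, while the vehicle values of Tgfb1i1 fell between its TGFbeta values. Ptk2, focal adhesion kinase, had 39.7 and 40.9 TPM with TGFbeta, against 34.5 and 32.2 TPM with vehicle, apart but not past the threshold (log2 change 0.27, adjusted p 0.286). Bcar1, the p130Cas scaffold, had 89.9 and 71.5 TPM with TGFbeta, against 74.6 and 73.7 TPM with vehicle, which overlapped (adjusted p 0.713).

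Outside the 40 genes, 61 of 64 other genes of the adhesion pathway were tested, of which 2 rose, 4 fell and 55 did not pass, with a median log2 change of -0.20. The called genes made up 9.84% of the list, against 5.92% of all tested genes. Nedd9, a scaffold of the same family as Bcar1, rose, with 152 and 152 TPM in the TGFbeta libraries, against 87.6 and 56.3 TPM in the vehicle libraries (log2 change 1.11, adjusted p 0.0439). Pdlim1, a PDZ and LIM protein that binds alpha-actinin, rose, with 270.3 and 285 TPM with TGFbeta, against 175 and 139 TPM with vehicle (log2 change 0.83, adjusted p 0.0406). Sorbs3, or vinexin, a partner of vinculin, fell, with 76.3 and 72.8 TPM with TGFbeta, against 175 and 229 TPM with vehicle (log2 change -1.41, adjusted p 0.0131). In these 3 genes the groups did not overlap. Tns4, a short tensin that lacks the actin-binding part, fell, with 2.48 and 2.10 TPM with TGFbeta, against 9.26 and 9.05 TPM with vehicle (log2 change -1.63, adjusted p 0.0127). Elmo1, which with Dock proteins activates Rac, also fell, with 7.01 and 7.27 TPM with TGFbeta, against 15.0 and 15.7 TPM with vehicle (log2 change -1.01, adjusted p 0.0274). The Arf GTPase-activating protein Asap1 fell, with 128 and 110 TPM with TGFbeta, against 197 and 187 TPM with vehicle (log2 change -0.69, adjusted p 0.0471). These 3 genes, too, had both TGFbeta values below both vehicle values.

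Of 35 genes that encode integrin ligands, 30 were tested, 2 rose, 2 fell and 26 did not pass, which makes 13.3% called, against 5.92% of all tested genes. The genes that rose encode Postn, a matricellular ligand of Itgav integrins (log2 change 2.52, adjusted p 0.00633), and Thbs1, a thrombospondin that binds several integrins (log2 change 1.08, adjusted p 0.0337). Postn had 984 and 1326 TPM in the TGFbeta libraries, against 222 and 177 TPM in the vehicle libraries. Thbs1 had 915 and 906 TPM in the TGFbeta libraries, against 505 and 365 TPM in the vehicle libraries. The genes that fell encode Lama4, a laminin alpha chain (log2 change -0.82, adjusted p 0.0245), and Col6a1, a chain of the microfibrillar collagen VI (log2 change -0.75, adjusted p 0.0427). Lama4 had 153 and 151 TPM with TGFbeta, against 273 and 264 TPM with vehicle, and Col6a1 had 395 and 337 TPM with TGFbeta, against 625 and 607 TPM with vehicle. None of the 4 genes overlapped between groups. The list's median was 0.01.

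Of 6 further integrin subunits, mostly of blood cells, 4 were tested and 1 fell, where 4.38% of all tested genes were called lower. Itga2b, the alpha subunit of the platelet fibrinogen receptor, had 10.2 and 10.2 TPM in the TGFbeta libraries, against 18.5 and 24.3 TPM in the vehicle libraries (log2 change -0.99, adjusted p 0.040). Of the other 4 platelet and megakaryocyte markers, Pf4 had 15.2 and 27.7 TPM with TGFbeta, against 37.0 and 29.95 TPM with vehicle, and Ppbp was at or near 0 in every library. The sum of all 5 was 26.5 and 40.2 TPM with TGFbeta, against 58.1 and 57.4 TPM with vehicle. It includes Itga2b, so it is no separate measure beside that gene. The part of platelets or megakaryocytes in the Itga2b value was not tested.

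**Figure D4:**
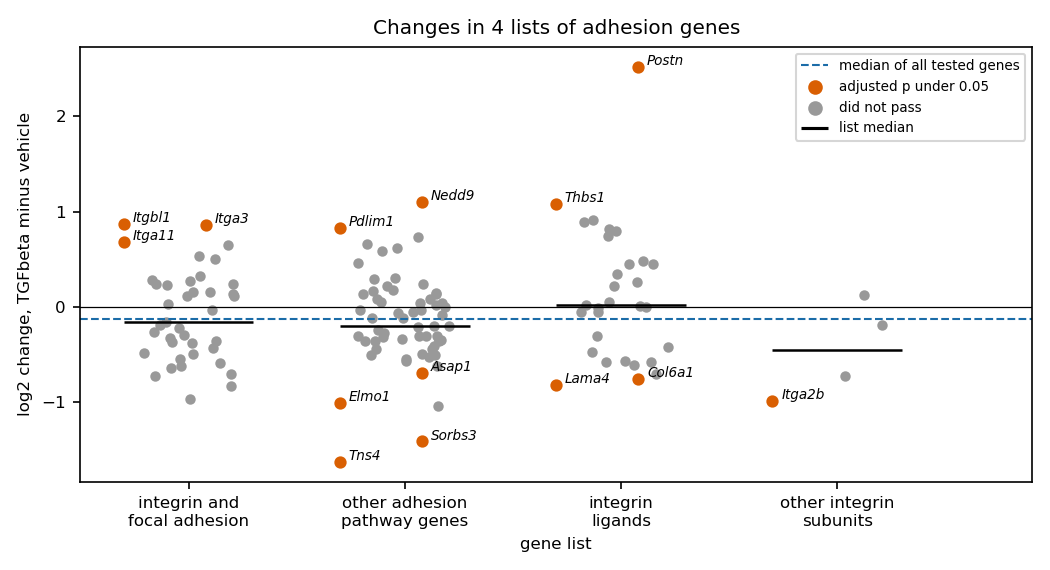
Log2 change with TGFbeta (TGFbeta minus vehicle) of each tested gene in the 40-gene set and in 3 lists of related genes, with a bar at each list's median and a dashed line at the median of all tested genes. Orange points passed the adjusted p threshold of 0.05 and are named, with Postn at 2.52 the highest and Tns4 at -1.63 the lowest.

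Sequences in the 3′ untranslated regions are shown because HuR, the protein named in the study design, binds AU-rich and U-rich stretches there. The regions were taken from GENCODE M21 on GRCm38. For each gene the coding transcript with the longest such region was used, which need not be the one present in these cells. The AU-rich heptamer TATTTAT, searched on the sense strand, occurred in 22 of the 39 tested members, or 56.4%, against 4106 of 13597 tested genes with such a region, or 30.2%. The members' regions were longer, with a median of 1489 bases against 1170 for all, and per kilobase the heptamer occurred 0.393 times in members and 0.294 times in all. The run TTTTTTT occurred in 43.6% of members and in 43.5% of all. Every start position was counted, so a longer stretch of T counts several times. By that count it occurred 0.970 times per kilobase in members and 1.86 times in all. Each of the following is 30 bases of the sense strand with the heptamer in capitals, from chr11:95045550-95045579 (minus) for Itga3, chr15:103344538-103344567 (minus) for Itga5, chr8:128733153-128733182 (plus) for Itgb1, and chr14:123973851-123973880 and chr14:123974854-123974883 (plus) for Itgbl1.
Itga3: cccttccttccTATTTATcataaattatga
Itga5: gcttagaaaccTATTTATccctgacttagg
Itgb1: ttaactgaagtTATTTATtaaaataaaaag
Itgbl1, first site: tataaggataaTATTTATtctcacataaac
Itgbl1, second site: agaatttaacaTATTTATaaaattgttgcc
Itga3 and Itgbl1, which rose, hold 1 and 2 such sites, while Itga11, which also rose, holds none. Itga5 and the abundant Itgb1, which did not pass, hold 1 each. These matches describe letters only, and no binding of HuR to them was measured here.

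The calls varied with the processing, and 9 members were called under at least 1 of 15 settings. Itga3 and Itgbl1 were called under 8 of the 15, Itga11 under 7, Itga5 under 4, Tns2 under 3, Itga1, Itga8 and Tln2 under 2 each and Itga10 under 1. In each of these 9, both TGFbeta values lay on 1 side of both vehicle values. Only quantile normalization and median scaling could therefore turn a sign, and neither did. Over the 15 settings Itga3 lay between 0.70 and 1.02, Itga11 between 0.60 and 0.84, and Itgbl1 between 0.75 and 1.02 on the log2 scale. When only genes with a mean of at least 5 TPM were tested, 12% of genes and 8 of 31 members were called, namely Itga3, Itga5, Itga11 and Itgbl1 higher and Itga1, Itga8, Tln2 and Tns2 lower. When only protein-coding genes were tested, 12.5% of genes and 9 members were called, with Itga10 added to the lower ones. With all libraries kept, none was called when every gene above 0 was tested, without an intensity trend or with a replicate block. No member was called when any 1 library was left out, and the adjusted p then reached 0.230 for Itga3, 0.257 for Itga11 and 0.215 for Itgbl1.

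**Figure D5:**
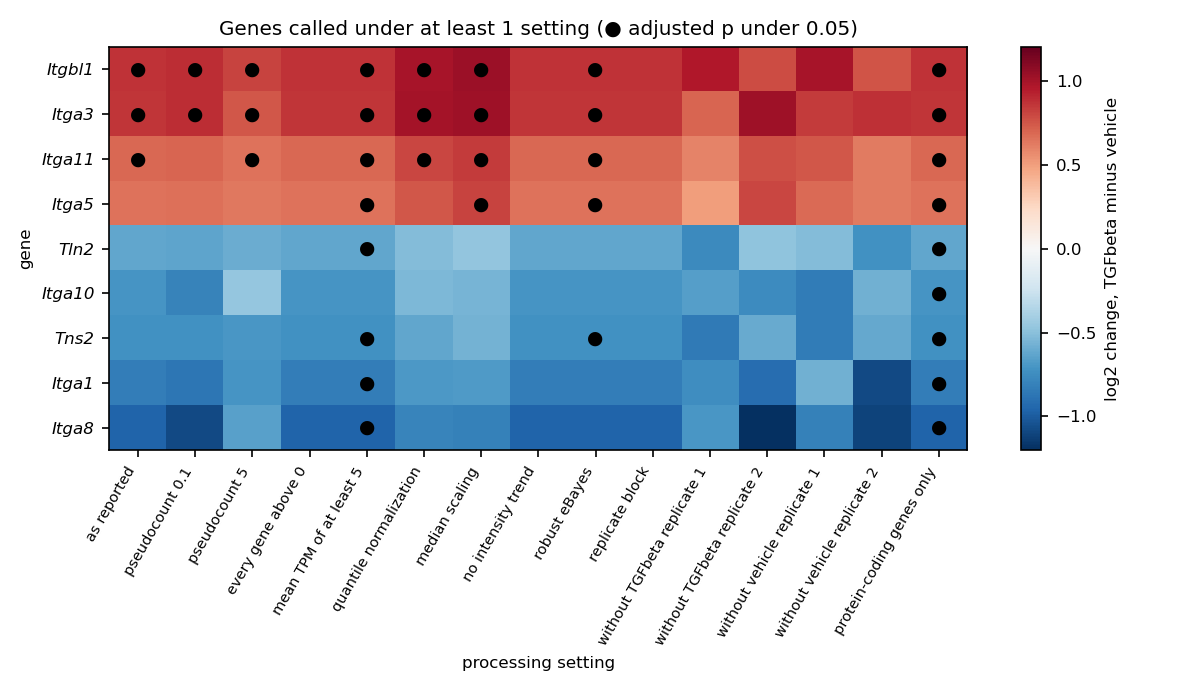
Log2 change (colour, TGFbeta minus vehicle) of the 9 genes called under at least 1 of 15 processing settings, with a dot where the adjusted p was under 0.05. The sign of these genes could turn only under quantile normalization and median scaling, and it did not. The dots are missing wherever 1 library was left out. They are also missing with every gene above 0, without an intensity trend and with a replicate block.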

How the data were processed

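RNA sequencing values of 2 TGFbeta and 2 vehicle libraries were used, grouped by their labels. The authors deposited 1 TPM value per gene symbol and library, per the file headers, for 33641 symbols. The sources used here name no aligner, quantifier, genome build, annotation or strand setting. Depth is unknown, since TPM carries no read numbers, and counting intervals are not given. The 40 genes, the related lists and the markers were picked by symbol, with earlier results of these data known.

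The whole table was tested in limma 3.58.1 (R 4.3.3; lmFit, eBayes with an intensity trend, two-sided) on log2(TPM + 1), over the 15815 genes with a mean of at least 1 TPM, with Benjamini-Hochberg adjustment over all of them. The pseudocount of 1 understates changes of low genes. The procedure was tested on simulated data. Exact permutation over the 6 arrangements of the libraries cannot go below p = 0.333 and was not used.

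The rule for naming gave all 4 values for called members, the 12 largest changes, the 8 highest levels and partner subunits, plus called genes of the other lists; the remaining members, Cd151 and markers were added after their values were seen. Alternatives were pseudocounts of 0.1 and 5, other filters and scalings, eBayes without trend or robust, a replicate block, each library left out and, added later, protein-coding genes only. Positions are from GENCODE M21 and promoters from RefSeq, matched by symbol.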

Additional observations from a re-analysis of the deposited data

How the results depend on the processing

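The number of genes called was 936 as reported, 0 when every gene above 0 was tested (4348 at an unadjusted p under 0.05, by limma), 602 without an intensity trend, 1712 with protein-coding genes only (chosen after seeing the data) and 0 to 203 with 1 library left out. It was 0 without vehicle 1 (3033 at an unadjusted p under 0.05) and without vehicle 2 (2407), 171 without TGFbeta 1 and 203 without TGFbeta 2, a lone library being assumed to vary like the other group. Members called higher were 3 as reported and 0 with every gene above 0, without an intensity trend and without any 1 library (0 to 0). Members called lower were 0 as reported, 4 at a mean of at least 5 TPM, 1 with robust eBayes and 5 with protein-coding genes only. Genes called lower over the whole table rose too. They were 692 of 15815 as reported, 1034 of 11463 at a mean of at least 5 TPM, 910 of 15815 with robust eBayes and 1285 of 13738 with protein-coding genes only. In either direction, 5.92% of all tested genes were called as reported, 12% at a mean of at least 5 TPM and 12.5% with protein-coding genes only. Genes called in the 3 related lists were 11 as reported, 0 with every gene above 0, 19 at a mean of at least 5 TPM, 4 without an intensity trend, 23 with protein-coding genes only and 0 to 1 with 1 library left out. The members' median was 0.12 at a mean of at least 5 TPM and -0.17 to 0.04 with 1 library left out. Members with separated groups numbered 31 to 33 with 1 library left out, where fewer values have to lie apart. The share over all tested genes was not counted with a library left out, so these member counts have no background beside them. The cause of the other shifts was not tested.

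With the replicate number as a block, 631 genes, 0 members and 5 genes of the related lists were called. The labels give same-numbered libraries no stated link beyond the number. The replicate 1 minus 2 differences of the groups correlated at r = -0.0539 over 15815 genes. With 1 such difference per group, this cannot show whether same-numbered libraries shared an animal, culture or batch.

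The sign turned for Fermt2 with quantile normalization (0.0699) and median scaling (0.12). With 1 library left out, the log2 change ranged over both signs for Fermt2 (-0.14 to 0.0720), Zyx (-0.00425 to 0.31), Bcar1 (-0.0518 to 0.27), Tgfb1i1 (-0.10 to 0.16), Tns1 (-0.14 to 0.38), Itgb6 (-1.10 to 0.66), Itgb7 (-0.79 to 0.25) and Itgb8 (-0.0492 to 0.61). None of these 8 genes was called under any setting.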
